A study of Mus musculus with 15 samples.

Results

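The 49 genes described here encode the proteins that copy the genome in S phase: the origin recognition complex, the loaders, the MCM helicase and its activators, the replicative polymerases, the sliding clamp and its loader, single-strand binding and Okazaki fragment enzymes, enzymes of deoxynucleotide supply, and 4 S-phase regulators. They were taken by symbol from a list of names. The rule used no measured value, but the list was drawn up with earlier results of these data known. All 49 were found among 36528 listed genes, and all 49 passed the filter on low counts that left 17282 genes to test. Polyadenylated RNA was sequenced from nests of basal cell carcinoma that were cut by laser from frozen mouse skin, in 3 groups of 5 libraries. The design sets tumour cells before the drug against those left after it. The groups are nests after 28 days of the Smoothened inhibitor vismodegib, untreated control nests negative for the proliferation antigen Ki67, and untreated control nests positive for it. Mice of all 3 groups carried K14Cre-ER, in which the keratin 14 promoter drives Cre in basal epithelium, with the alleles Ptch1fl/fl and p53fl/fl, and Lgr5GFP. Ages are not given in the labels. The untreated nests were divided by Ki67 and the vismodegib nests were not, so comparisons with the drug group also carry that difference in how nests were picked.

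DNA replication begins at origins that the origin recognition complex marks in G1, where Cdc6 and Cdt1 load the ring of Mcm2 to Mcm7. In S phase, Cdc45 and the GINS proteins turn that ring into the working helicase, primase and DNA polymerase alpha start each strand, and polymerases delta and epsilon extend it on the PCNA clamp. Many of these genes are targets of E2F factors, which are released from pocket proteins when cyclin E and its kinase drive a cell out of G1. In skin this programme belongs to cycling cells of the basal layer and hair follicle, and in basal cell carcinoma Hedgehog signalling through Smoothened drives it.

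Promoters are shown because motifs of E2F factors were found in a part of the group, a feature that the rule did not use. E2F factors are known to bind sites such as TTTCCCGC and TTTGGCGC, and both were searched on both strands of the RefSeq promoters (GRCm38.p6, 250 bases before to 50 after a start). Of the 41 genes of the group with an entry, 13 held a match (31.7%), against 486 of 27025 genes with an entry (1.80%). The group had 1.22 starts per gene and all genes 1.22, so the number of windows did not differ. The 13 are Orc3, Cdc6, Cdt1, Mcm3, Mcm5, Mcm6, Mcm7, Gins3, Pola1, Pold1, Pold3, Pole2 and Rfc3. The shorter motifs TTCCCGC and TTGGCGC lie within the longer ones and were searched with TTGCCGC and TTCGCGC. They were found in 25 of the 41 genes (61.0%), against 10.9% of all genes. Mcm4, Gins1, Gins2, Gins4, Prim2, Pole, Rfc2 and Ccne2 have no entry.

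Sequence is printed for 5 genes called in a comparison below (Prim1, Rpa2, Rfc3, Tyms and Mcm10). It is also printed for 3 uncalled genes (Pold3, Lig1 and Rfc5), from the same parts of the list as Prim1, Rpa2 and Rfc3. Where genes are grouped by complex below, each part of the list is meant, and a part can hold genes of different complexes. Each sequence runs from 100 bases before the start, 5′ to 3′ on the gene's strand. Capitals mark each match to a long or short motif on either strand. The windows are Prim1 at chr10:128015115-128015264 (plus strand), Rpa2 at chr4:132768260-132768409 (plus strand), Rfc3 at chr5:151651159-151651308 (minus strand), Tyms at chr5:30073576-30073725 (minus strand), Mcm10 at chr2:5012742-5012891 (minus strand), Pold3 at chr7:100121453-100121602 (minus strand), Lig1 at chr7:13277075-13277224 (plus strand) and Rfc5 at chr5:117388974-117389123 (minus strand).
Prim1: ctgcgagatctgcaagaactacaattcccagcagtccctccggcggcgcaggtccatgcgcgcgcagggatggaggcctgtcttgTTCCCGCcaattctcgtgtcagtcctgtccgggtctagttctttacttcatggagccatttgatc
Rpa2: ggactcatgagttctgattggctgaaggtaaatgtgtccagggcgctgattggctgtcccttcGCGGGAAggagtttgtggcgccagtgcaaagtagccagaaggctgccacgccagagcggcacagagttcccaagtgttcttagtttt
Rfc3: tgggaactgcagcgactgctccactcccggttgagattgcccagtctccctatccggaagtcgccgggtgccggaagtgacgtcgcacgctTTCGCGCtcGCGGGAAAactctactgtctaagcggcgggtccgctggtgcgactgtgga
Tyms: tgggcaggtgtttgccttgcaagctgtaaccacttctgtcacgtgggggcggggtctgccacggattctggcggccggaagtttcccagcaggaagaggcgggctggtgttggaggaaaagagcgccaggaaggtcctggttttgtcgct
Mcm10: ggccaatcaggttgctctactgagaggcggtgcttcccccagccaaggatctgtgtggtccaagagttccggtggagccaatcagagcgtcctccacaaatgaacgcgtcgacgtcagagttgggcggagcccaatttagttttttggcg
Pold3: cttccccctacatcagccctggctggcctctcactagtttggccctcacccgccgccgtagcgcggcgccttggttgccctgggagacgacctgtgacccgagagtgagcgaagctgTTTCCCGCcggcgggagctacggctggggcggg
Lig1: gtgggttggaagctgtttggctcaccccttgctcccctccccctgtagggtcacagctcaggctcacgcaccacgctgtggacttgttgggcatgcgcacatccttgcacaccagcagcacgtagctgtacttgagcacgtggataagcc
Rfc5: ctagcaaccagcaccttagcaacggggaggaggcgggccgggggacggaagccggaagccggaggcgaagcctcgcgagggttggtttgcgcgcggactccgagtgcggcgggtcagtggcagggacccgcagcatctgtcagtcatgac
Of the called genes shown, Rfc3 held a long motif at its start and a short one before it, Prim1 and Rpa2 held 1 short motif each, and Tyms and Mcm10 held none in the window. Of the uncalled genes shown, Pold3 held a long motif and Rfc5 none. Lig1 held none at the start shown and short ones at its other starts. A match is a description of the letters and says nothing of binding in these nests.

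Library totals ran from 6413055 to 10328822 counts after vismodegib, from 4887381 to 7158143 in Ki67-negative nests and from 4929869 to 8359195 in Ki67-positive nests, and the 49 genes took 0.132% to 0.211% of a library. The labelled tissue was checked on basal keratins: Krt5 was at 3725 CPM or above in every vismodegib library, 1786 or above in every Ki67-negative library and 2724 or above in every Ki67-positive library. Levels are in CPM, a gene's counts scaled to a common library total that is adjusted by TMM, the trimmed mean of M values. The 9 nest keratinocyte markers summed to 13299 to 16897 CPM after vismodegib, 5909 to 9609 CPM in Ki67-negative and 7950 to 9293 CPM in Ki67-positive nests, with 5 higher after the drug in each comparison and 1 lower against Ki67-positive nests. Every mouse carried the floxed alleles, so Ptch1 and Trp53 levels check no genotype label. After vismodegib, Ptch1 and the Hedgehog pathway gene Gli1 were lower than in either untreated group, without overlap. Their log2 fold changes were −2.43 and −2.17 over Ki67-positive nests and −2.51 and −2.35 over Ki67-negative nests, all called by edgeR. Mki67, the gene of the antigen, averaged 683 ± 142 CPM after vismodegib, 361 ± 74.5 CPM in Ki67-negative nests and 776 ± 228 CPM in Ki67-positive nests (SD, n = 5 each). Its Ki67-negative values lay below all others. Markers of other cells moved with the vismodegib libraries. Of 11 differentiating epidermis markers tested, 10 were higher than in either untreated group, with sums of 3063 to 4664 CPM after vismodegib, 214 to 547 in Ki67-negative and 240 to 584 in Ki67-positive nests. Dendritic and Langerhans cell markers summed to 803 to 2494, 214 to 536 and 185 to 555 CPM in the same order of groups, with 8 of 10 higher than in Ki67-positive and 6 of 10 higher than in Ki67-negative nests. T and NK cell markers summed to 77.8 to 193, 19.2 to 102 and 22.0 to 59.3 CPM (6 and 5 of 8 higher). Pericyte markers summed to 100 to 148, 653 to 981 and 565 to 921 CPM (5 of 7 lower against each), and fibroblast markers to 485 to 3840, 2914 to 5397 and 1934 to 6585 CPM (4 and 5 of 10 lower). Melanocyte markers summed to 98 to 401, 181 to 1191 and 335 to 1521 CPM (4 and 3 of 6 lower, 1 higher against Ki67-negative nests). Macrophage markers summed to 97.4 to 331, 81.8 to 432 and 39.6 to 186 CPM (1 of 7 higher against each, 1 lower against Ki67-negative nests), and endothelial markers to 27.6 to 59.5, 11.3 to 84.7 and 13.2 to 55.4 CPM (0 of 6 called by edgeR). No found marker was at 0 in every library, no marker of any list was called by edgeR between the untreated groups, and the part of these cells in the results below was not tested. In bulk nests, fewer cycling cells and less RNA per cell cannot be told apart.

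Some libraries stand apart. Ki67-negative library 5 lay away from the other 14 on the second principal component and had the fewest genes with a count, 19669. It stood at 98 on that component and the others at −23.5 to 7.67. In 5 libraries, vismodegib 1, 2 and 3, Ki67-negative 5 and Ki67-positive 5, the level of Xist was above that of Ddx3y on the Y chromosome. The labels tie no library to an animal, so nests of a group may share one, in which case the p-values are too small. The untreated groups may also share animals, a pairing that was not used and that can make the p-values between them too large. The labels name no sequencing run either. The Ki67-negative libraries were deposited under a later range of sample numbers, so such a run and the group cannot be told apart.

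Replication gene levels after vismodegib lay near those of Ki67-positive nests and mostly above those of Ki67-negative nests. The mean log2(CPM + 0.5) of the 49 genes was 4.23, 4.68, 4.85, 4.60 and 4.36 in the vismodegib libraries, 4.48, 4.32, 4.01, 4.15 and 3.88 in the Ki67-negative libraries, and 4.67, 4.34, 4.60, 4.91 and 4.81 in the Ki67-positive libraries. All 3 ranges overlapped, with vismodegib libraries 1 and 5 within the Ki67-negative range. Their summed level was 1741 ± 210 CPM after vismodegib, 1452 ± 136 CPM in Ki67-negative nests and 1789 ± 222 CPM in Ki67-positive nests (SD, n = 5 each). The group mean after vismodegib was above both untreated means for 21 genes, between them for 19 and below both for 9, and it was nearer the Ki67-positive mean for 31 and the Ki67-negative mean for 18. The same counts were not made over all genes, so they are not set against a background.

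**Figure D1:**
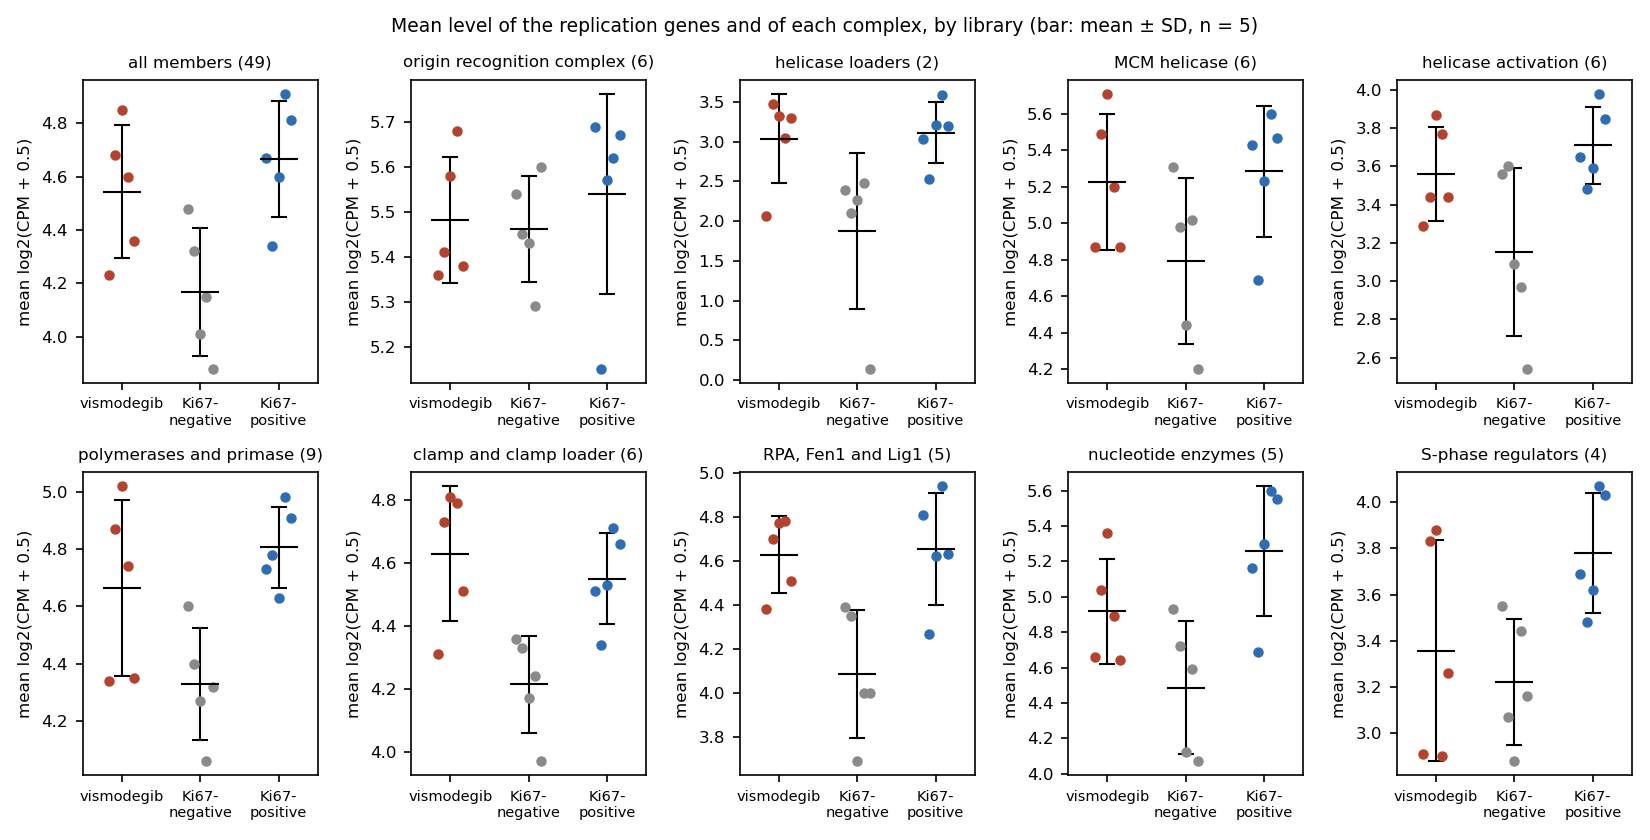
Mean log2(CPM + 0.5) per library (y axes, each with its own range) of all 49 replication genes and of each complex, with the number of genes in brackets, in the vismodegib, Ki67-negative and Ki67-positive groups (x axes). Points are libraries and bars the mean ± SD (n = 5). The origin recognition complex has nearly the same mean in all groups (5.48, 5.46 and 5.54), while the list mean is 4.54, 4.17 and 4.67.

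Against Ki67-positive nests, vismodegib nests had 2 of the 49 genes lower (4.08%) and 0 higher in edgeR's quasi-likelihood test at a p under 0.05 after Benjamini-Hochberg adjustment over all 17282 genes, against 26.0% of all genes called (13.4% lower, 12.6% higher), a share below the background. At an unadjusted p under 0.05, 5 were lower and 0 higher, beside 37.4% of all genes (19.1% lower, 18.4% higher), and DESeq2 called 4 lower and 0 higher. The lower genes were Mcm10 and Uhrf1, which the RefSeq annotation of GRCm38.p6 places as Mcm10 at chr2:4990724-5012791 and Uhrf1 at chr17:56303337-56323486. The median log2 fold change of the 49 was −0.07 (range −1.24 to 0.45), beside −0.02 over all genes, and 28 lay below 0, beside 51.5% of all genes. That median had no stable sign: it was 0.01 without vismodegib library 1 or Ki67-positive library 5, −0.04 without vismodegib library 2 or 5 or Ki67-positive library 4, −0.11 without vismodegib library 3 and −0.13 without Ki67-positive library 2. For 36 of the 49 (73.5%) the 95% interval of the fold change lay within 2-fold either way, beside 46.6% of all genes, so for these a change beyond 2-fold is outside the interval. The count of 2 depends on single libraries: it was 1 without vismodegib library 1 or 4 or Ki67-positive library 4 or 5, and 4 without vismodegib library 3 or Ki67-negative library 5. With Xist over Ddx3y as a covariate in the fit, the count was 2. The 10 libraries in which Ddx3y exceeded Xist, a split chosen after seeing the data, include only libraries 4 and 5 of the vismodegib group. In them the count was 1 (Tk1), and neither Mcm10 (−1.19, adjusted p = 0.0646) nor Uhrf1 (−1.15, adjusted p = 0.0677) was called.

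Against Ki67-negative nests, vismodegib nests had 9 of the 49 genes higher (18.4%) and 0 lower, against 31.9% of all genes called (15.4% higher, 16.5% lower), a share near the background. DESeq2 called 13 higher and 0 lower, and at an unadjusted p under 0.05 there were 15 higher (30.6%, beside 20.5% of all genes) and 0 lower. The 9 were Prim1, Rpa2, Rfc3, Tyms, Gins2, Cdt1, Rpa3, Pcna and Rrm1, the first 2 of which are Prim1 at chr10:128015215-128030030 and Rpa2 at chr4:132768360-132778746. The median log2 fold change was 0.31 (range −0.31 to 1.36), beside −0.03 over all genes. Of the 49, 9 lay below 0, beside 51.9% of all genes. For 6 (12.2%) the groups did not overlap, all higher, beside 10.4% of all genes higher and 20.5% in either direction. With Xist over Ddx3y as a covariate in the fit, 9 were higher and 0 lower, with a median of 0.28. In the same 10 libraries, with only vismodegib libraries 4 and 5, the count was 3 (Cdt1, Prim1 and Rpa2) and the median 0.17. The log2 fold changes of the 6 genes not called there were 0.99 for Pcna, 1.06 for Rpa3 and 0.76 for Rrm1, no smaller than with all libraries, and 0.70 for Gins2, 0.70 for Rfc3 and 0.48 for Tyms, which were smaller. Both comparisons use the same vismodegib libraries.

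Between the untreated groups, 0 of the 49 genes were called by edgeR, and 0.174% of all genes were (30 genes, all lower in Ki67-negative nests). At an unadjusted p under 0.05, 21 of the 49 were lower in Ki67-negative nests (42.9%) and 0 higher, beside 3.31% and 3.37% of all genes (6.68% in either direction). The groups did not overlap for 4 of the 49 (8.16%), Cdt1, Mcm10, Prim1 and Rfc3, all lower, beside 0.845% of all genes lower and 1.17% in either direction. DESeq2 called 4 lower (Dut, Mcm10, Pole and Rpa2) and 0 higher. The median log2 fold change was −0.46 (range −1.42 to 0.28), beside 0.01 over all genes, 44 of the 49 lay below 0 (89.8%, beside 48.9% of all genes), and the median was −0.39 in the 10 libraries with Ddx3y over Xist. The smallest adjusted p was 0.174, for Pole, so no single gene of the group passed in this test, and these groups were chosen by an antigen of cycling cells.

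**Figure D2:**
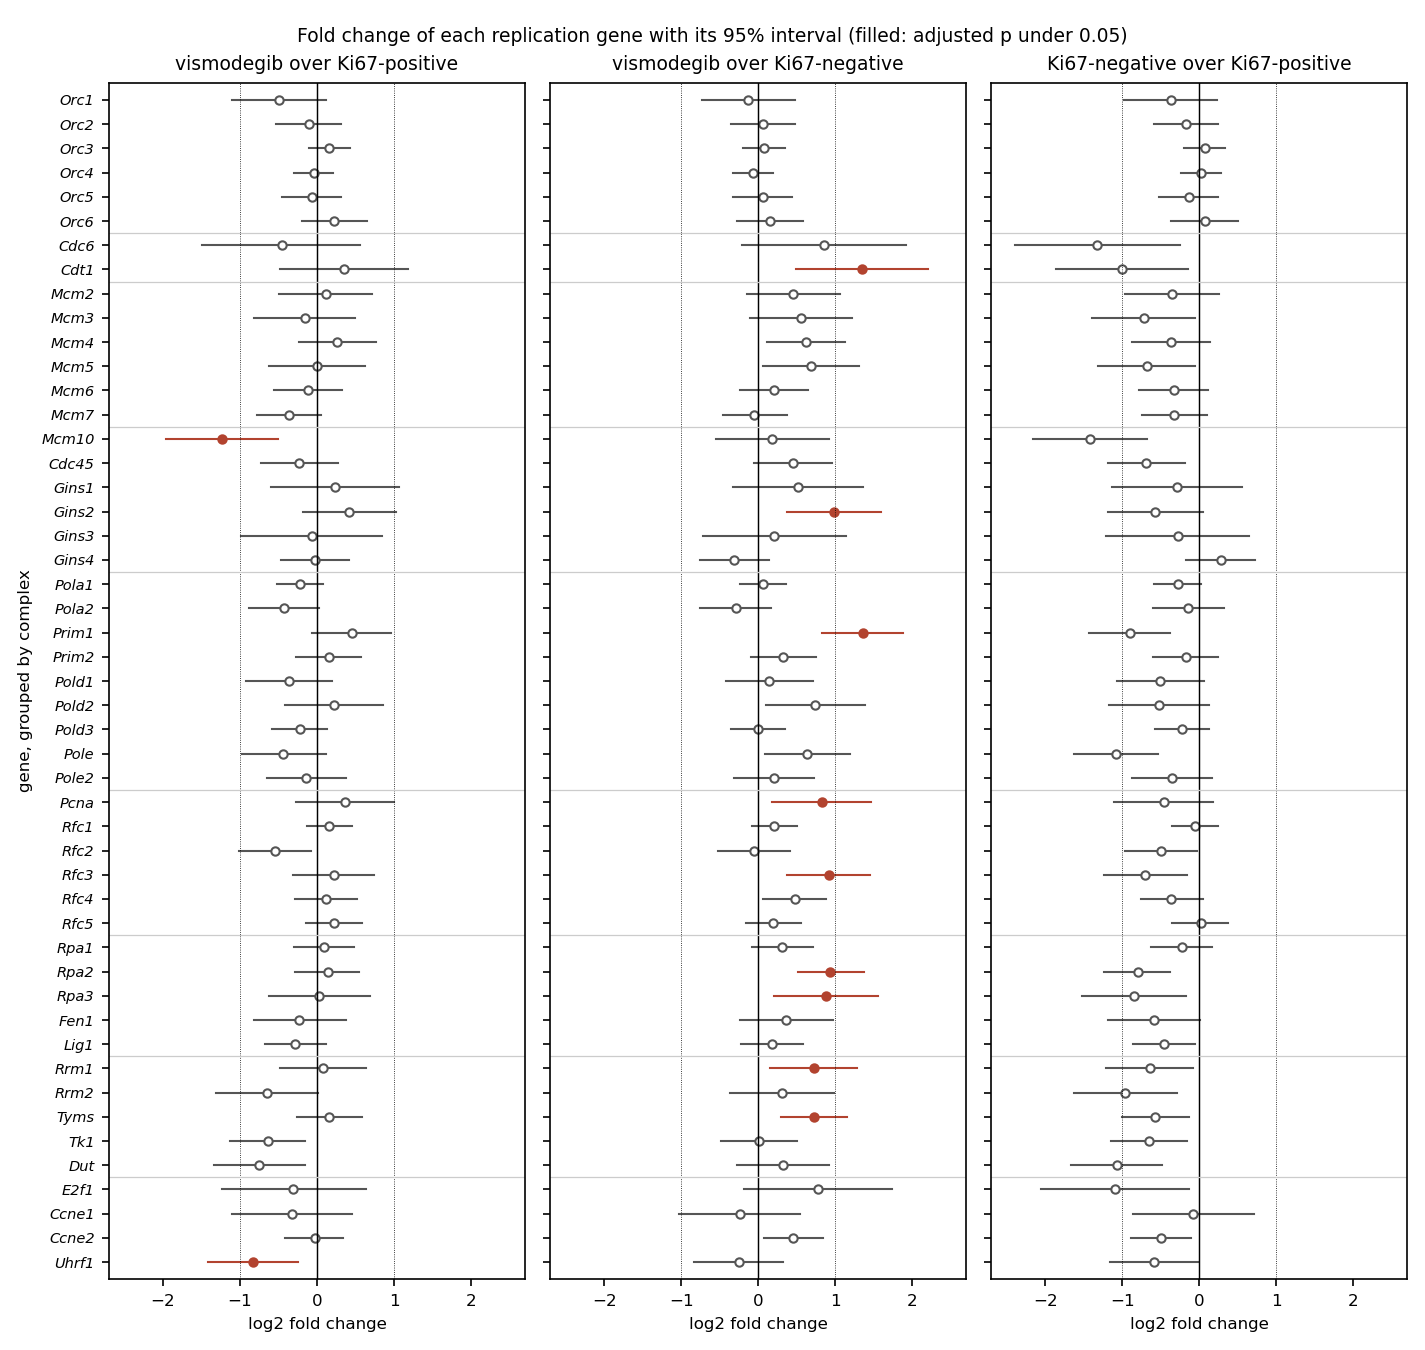
Log2 fold change (x axes) of each of the 49 replication genes (rows, grouped by complex) with its 95% interval in the 3 comparisons; filled red points have an adjusted p under 0.05 and dotted lines mark 2-fold. The 2 lower genes on the left are Mcm10 and Uhrf1, the 9 higher ones in the middle include Prim1 at 1.36 and Cdt1 at 1.35, and 0 are filled on the right, where 44 of 49 lie below 0.

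Genes of the origin recognition complex were at nearly the same level in all groups. Of Orc1 to Orc6, 0 were called in any comparison by edgeR and 0 had an unadjusted p under 0.05, and their median log2 fold changes were −0.06, 0.06 and −0.06 for vismodegib over Ki67-positive, vismodegib over Ki67-negative and Ki67-negative over Ki67-positive nests. For all 6, the 95% interval lay within 2-fold in both comparisons with Ki67-negative nests, and it did so for 5 of the 6, all but Orc1, in vismodegib over Ki67-positive nests. Nif3l1 on the opposite strand overlaps 29.8% of Orc2's exon bases, so the level of Orc2 is uncertain. Orc1, the subunit whose level is cycle-regulated in mammalian cells, was at 5.86, 10.3, 15, 9.72 and 5.63 CPM after vismodegib, 11.1, 10.3, 11.7, 6.79 and 11.1 CPM in Ki67-negative nests, and 16.6, 13.3, 10.8, 16.2 and 8.90 CPM in Ki67-positive nests. These groups overlapped, with the 2 lowest values in vismodegib libraries 1 and 5, and the log2 fold change against Ki67-positive nests was −0.50 (SE 0.29, adjusted p = 0.22).

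Of the loaders, Cdt1, which brings MCM to the origin and is destroyed in S phase, was higher after vismodegib than in Ki67-negative nests. It was at 10.6, 17.4, 18.8, 16.3 and 16.6 CPM after vismodegib, 5.81, 9.06, 6.06, 9.66 and 0.598 CPM in Ki67-negative nests, and 10.3, 11.6, 13.8, 15.4 and 11.3 CPM in Ki67-positive nests. All Ki67-negative values lay below all others, the lowest of them from 4 counts in library 5. The log2 fold change was 1.35 over Ki67-negative (SE 0.41, adjusted p = 0.0175) and 0.35 over Ki67-positive nests (SE 0.40, adjusted p = 0.558), and −1.0 for Ki67-negative over Ki67-positive nests (SE 0.41, adjusted p = 0.703). Cdc6, the ATPase that acts with Cdt1, had 4 to 74 counts per library. It was at 1.08, 6.33, 4.65, 3.52 and 5.11 CPM after vismodegib, 3.87, 1.42, 3.03, 2.57 and 0.598 CPM in Ki67-negative nests, and 5.68, 2.25, 5.47, 8.46 and 6.67 CPM in Ki67-positive nests. The groups overlapped, and the fold change over Ki67-positive nests was −0.46 on the log2 scale, with a 95% interval from −1.49 to 0.56 that leaves a change beyond 2-fold inside it.

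The 6 genes of the MCM ring, the helicase that unwinds DNA at the fork, did not pass the test in any comparison, and Mcm3 and Mcm5 had an unadjusted p under 0.05 in Ki67-negative over Ki67-positive nests (−0.72 and −0.68), as had Mcm4 and Mcm5 in vismodegib over Ki67-negative nests. For all 6 the 95% interval of vismodegib over Ki67-positive nests lay within 2-fold, with log2 fold changes from −0.37 (Mcm7) to 0.26 (Mcm4). Over Ki67-negative nests they ran from −0.05 (Mcm7) to 0.69 (Mcm5), and Mcm4 missed the threshold at 0.62 (SE 0.24, adjusted p = 0.0565). Mcm7 was at 21.4, 25.5, 25.9, 28.3 and 17.4 CPM after vismodegib, 26.1, 34.1, 26.1, 19.9 and 16.3 CPM in Ki67-negative nests, and 33.5, 25.6, 28.3, 33.0 and 32.6 CPM in Ki67-positive nests. The groups overlapped (vismodegib over Ki67-positive −0.37, SE 0.20, adjusted p = 0.189). Of the Mcm7 transcripts' 50-base words, 23.3% are shared with a processed pseudogene or a neighbour, so its level is uncertain.

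Levels of different subunits compare only per length, on the deposited RPKM (reads scaled by gene model length and library size, and divided by a size factor per library). Mcm6 was the highest MCM gene in every group, at 6.81 ± 1.94, 5.98 ± 1.60 and 7.49 ± 1.36 RPKM after vismodegib, in Ki67-negative and in Ki67-positive nests, followed by Mcm4 at 4.53 ± 0.837, 2.98 ± 1.14 and 3.82 ± 0.859 RPKM (SD, n = 5 each). Mcm6 was above Mcm4 in every library of all groups. Mcm4 came next in every vismodegib library, but not in Ki67-negative libraries 2, 3 and 5 or Ki67-positive library 5. The lowest subunit averaged 2.24, 1.51 and 2.43 RPKM, so genes of a ring with equal subunits spanned 3.04-, 3.95- and 3.08-fold. The order of Mcm2, Mcm3, Mcm5 and Mcm7 differed between libraries within each group, so it is not set. In the origin recognition complex Orc3 was the highest, at 13.2 ± 1.73, 12.6 ± 1.95 and 11.9 ± 1.5 RPKM, and Orc1 the lowest, at 0.802 ± 0.332, 0.895 ± 0.181 and 1.15 ± 0.288 RPKM. Rfc1, the large subunit of the clamp loader, averaged 5.37, 4.71 and 4.84 RPKM, next to Rfc4 at 5.21, 3.80 and 4.84 RPKM. Rfc1 was above Rfc4 in every Ki67-negative library, and their order differed between libraries in the vismodegib and Ki67-positive groups.

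**Figure D3:**
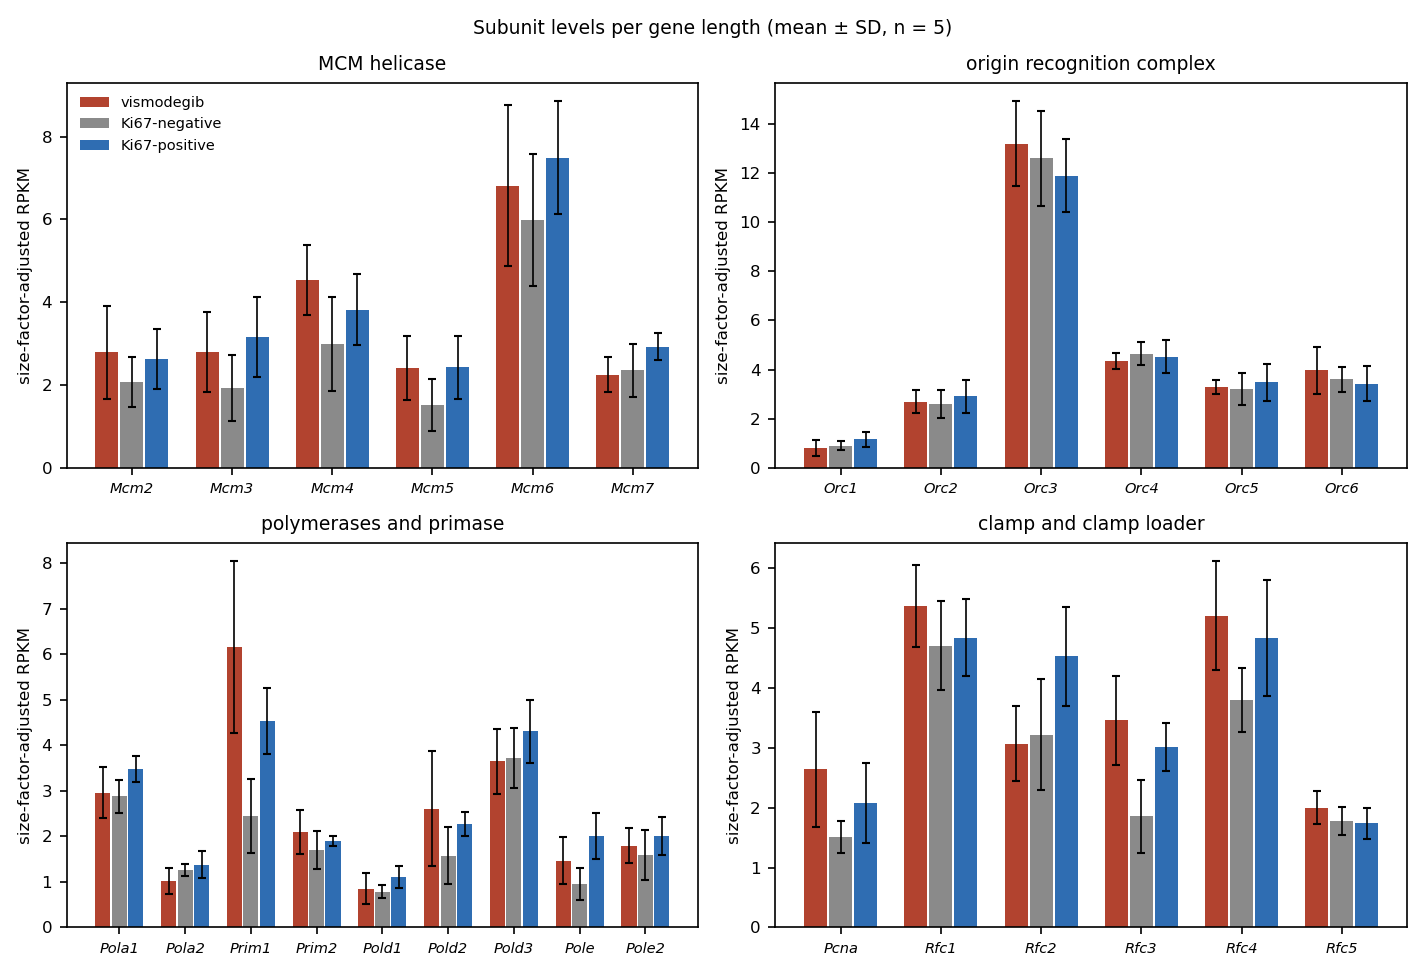
Deposited RPKM (y axes, divided by a size factor per library) of the subunits of 4 complexes (x axes) in vismodegib, Ki67-negative and Ki67-positive nests; bars are means and error bars SD over 5 libraries. Mcm6 and Orc3 stand above the other subunits of their complexes in every group, and Prim1 is the bar that differs most between groups among the polymerase genes (6.16, 2.45 and 4.54 RPKM).

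Among the activators of the helicase, Mcm10 was lower and Gins2 higher in different comparisons. Mcm10, which is needed to start unwinding, was at 4.78, 3.48, 9.01, 6.08 and 4.98 CPM after vismodegib, 6.61, 7.51, 3.63, 5.13 and 2.09 CPM in Ki67-negative nests, and 10.6, 16.4, 8.55, 15.2 and 16.6 CPM in Ki67-positive nests. Only vismodegib library 3 reached the lowest Ki67-positive value, and all Ki67-negative values lay below all Ki67-positive ones. The log2 fold change was −1.24 for vismodegib over Ki67-positive nests (SE 0.35, adjusted p = 0.0128), 0.18 over Ki67-negative nests (SE 0.35, adjusted p = 0.719) and −1.42 for Ki67-negative over Ki67-positive nests (SE 0.35, adjusted p = 0.184). The gene had 14 to 133 counts per library. Gins2, a subunit of the GINS tetramer, was at 18.8, 27.4, 35.4, 28.7 and 19.8 CPM after vismodegib, 18.6, 16, 15.1, 10.3 and 5.68 CPM in Ki67-negative nests, and 14.9, 15, 25.7, 25.3 and 16 CPM in Ki67-positive nests. Vismodegib and Ki67-negative values did not overlap, by a narrow margin (log2 fold change 0.99, SE 0.29, adjusted p = 0.0147), while vismodegib and Ki67-positive values did (0.42, SE 0.29, adjusted p = 0.299). Of Gins2's exon bases, 67.3% overlap Gse1 on the opposite strand, and the use of strand in counting is not given in the sources used here. The other 4 genes, Cdc45, Gins1, Gins3 and Gins4, were not called, with log2 fold changes from −0.23 to 0.23 over Ki67-positive nests and from −0.31 to 0.52 over Ki67-negative nests.

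Prim1, the catalytic subunit of primase that lays the RNA primer, had the smallest adjusted p of the group. It was at 22.7, 32.9, 42.1, 47.4 and 27.2 CPM after vismodegib, 14.5, 17.6, 17.4, 10.3 and 7.63 CPM in Ki67-negative nests, and 26.9, 20.6, 22.8, 31.3 and 24.3 CPM in Ki67-positive nests. All Ki67-negative values lay below all others. Prim1 was higher after vismodegib than in Ki67-negative nests by 1.36 on the log2 scale (SE 0.25, adjusted p = 0.000484), a 2.56-fold change, and was at 0.45 over Ki67-positive nests (SE 0.24, adjusted p = 0.185) and −0.90 for Ki67-negative over Ki67-positive nests (SE 0.25, adjusted p = 0.316). Its partner Prim2, the large primase subunit, was at 0.33 over Ki67-negative nests (SE 0.20, adjusted p = 0.225), and the polymerase alpha genes Pola1 and Pola2 at 0.06 and −0.29, none of them called. For all 9 polymerase and primase genes the interval of vismodegib over Ki67-positive nests lay within 2-fold. Pole, the catalytic subunit of polymerase epsilon, is named here after its values were seen. It was at 31.1, 62.8, 54.3, 44.7 and 26.6 CPM after vismodegib, 46.3, 28.3, 22.2, 21.7 and 21.8 CPM in Ki67-negative nests, and 55.0, 48.6, 45.4, 67.3 and 81.3 CPM in Ki67-positive nests. Ki67-negative library 1 alone reached the Ki67-positive range (log2 fold change −1.08, SE 0.26, adjusted p = 0.174), and the gene was called lower without that library.

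PCNA, the sliding clamp, and Rfc3, a subunit of the loader that opens it, were higher after vismodegib than in Ki67-negative nests. Rfc3 was at 15.4, 19.3, 22.3, 22.7 and 14.1 CPM after vismodegib, 11.3, 12.2, 11.7, 10.4 and 4.19 CPM in Ki67-negative nests, and 16, 13.5, 15, 17.4 and 19.0 CPM in Ki67-positive nests. Ki67-negative values lay below all others, and the log2 fold change was 0.92 over Ki67-negative nests (SE 0.26, adjusted p = 0.0109) and 0.22 over Ki67-positive nests (SE 0.25, adjusted p = 0.569). Pcna was at 6.01, 12.2, 15.5, 16.8 and 10.2 CPM after vismodegib, 7.58, 5.10, 6.26, 8.30 and 7.03 CPM in Ki67-negative nests, and 8.60, 4.82, 11.3, 9.71 and 12.9 CPM in Ki67-positive nests. Vismodegib library 1 lay within the Ki67-negative range, and the call (0.83, SE 0.31, adjusted p = 0.0468) was made in 9 of the 25 settings tried. A pseudogene shares 19.1% of Pcna's 50-base words. Rfc2, another loader subunit, was at 12.2, 19.9, 16.3, 20.4 and 16.2 CPM after vismodegib, 16.8, 25.5, 15.3, 19.3 and 11.2 CPM in Ki67-negative nests, and 20.4, 23.3, 21.6, 31.3 and 27.7 CPM in Ki67-positive nests. It was the only gene of the 49 with every vismodegib value under every Ki67-positive value, by a margin smaller than the rounding of these values (vismodegib library 4 and Ki67-positive library 1), where 10.1% of all genes were (20.3% in either direction), and it missed the threshold (−0.55, SE 0.22, adjusted p = 0.0783). Lat2 on the opposite strand overlaps 15.1% of Rfc2's exon bases, so its level is uncertain. Rfc1, Rfc4 and Rfc5 were not called and had log2 fold changes from 0.12 to 0.22 over Ki67-positive nests.

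Of the single-strand binding genes, Rpa2 and Rpa3, the smaller subunits of replication protein A, were higher after vismodegib than in Ki67-negative nests, and Rpa1, the large subunit, was not called (0.31, SE 0.19, adjusted p = 0.214). Rpa2 was at 21.4, 22.5, 22.7, 26.4 and 20.4 CPM after vismodegib, 11.8, 13.7, 9.90, 11.2 and 12.3 CPM in Ki67-negative nests, and 16.3, 13.3, 23.5, 27.1 and 22.7 CPM in Ki67-positive nests. The vismodegib and Ki67-negative values did not overlap, and Ki67-positive libraries spanned the gap between them. The log2 fold change was 0.94 over Ki67-negative nests (SE 0.20, adjusted p = 0.00176) and 0.14 over Ki67-positive nests (SE 0.20, adjusted p = 0.655). Rpa3 was at 7.71, 7.91, 10.7, 14.8 and 9.69 CPM after vismodegib, 7.42, 7.22, 3.23, 5.59 and 4.04 CPM in Ki67-negative nests, and 13.8, 4.82, 9.03, 12.5 and 9.51 CPM in Ki67-positive nests. Its vismodegib values lay just above the Ki67-negative ones (0.88, SE 0.32, adjusted p = 0.0437), and the call was made in 13 of the 25 settings. Lig1, the ligase that seals Okazaki fragments, was at 34.1, 57.7, 56.8, 43.5 and 38.0 CPM after vismodegib, 51.0, 40.5, 33.3, 32.0 and 46.2 CPM in Ki67-negative nests, and 49.6, 70.1, 43.4, 64.4 and 51.8 CPM in Ki67-positive nests. The groups overlapped in every comparison, and neither Lig1 (−0.28 over Ki67-positive nests, SE 0.19, adjusted p = 0.304) nor the flap endonuclease gene Fen1 was called. Of Fen1's exon bases, 84.2% overlap genes on the opposite strand, so its level is uncertain.

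**Figure D4:**
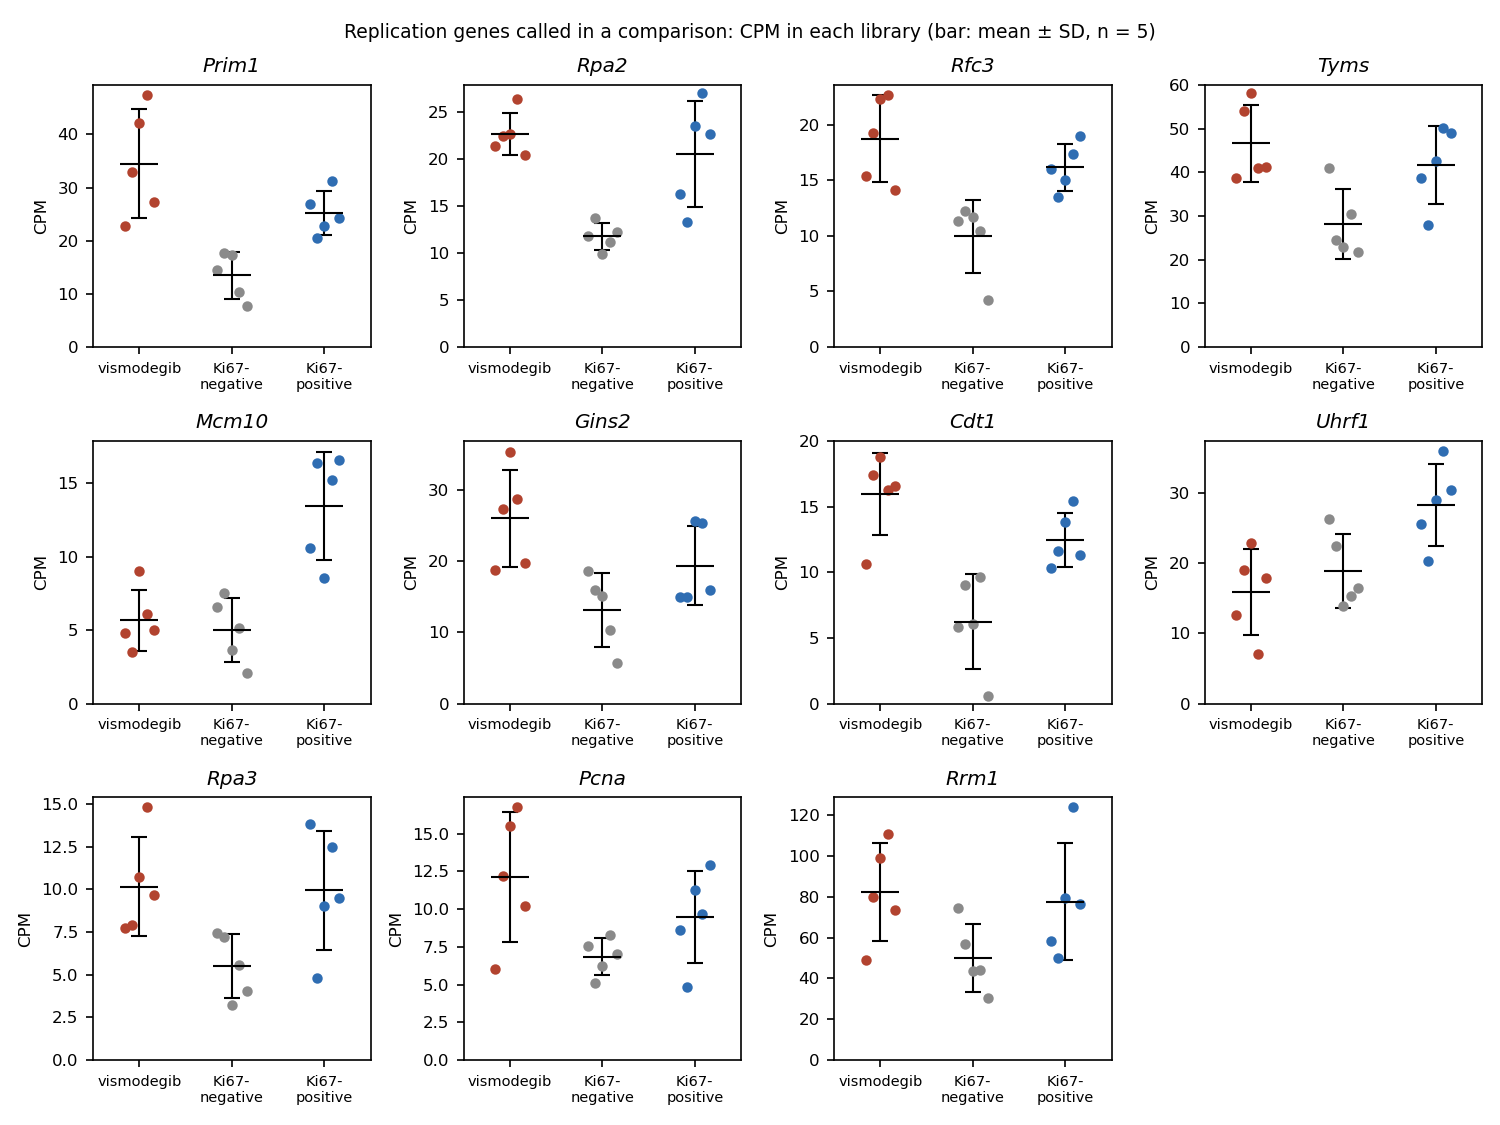
CPM (y axes, from 0) in each library of the 11 replication genes called in a comparison, in vismodegib, Ki67-negative and Ki67-positive nests (x axes); points are libraries and bars the mean ± SD (n = 5). Vismodegib and Ki67-negative points do not overlap for Prim1, Rpa2, Rfc3, Gins2, Cdt1 and Rpa3, and vismodegib points of Mcm10 and Uhrf1 lie with the Ki67-negative ones.

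Enzymes of deoxynucleotide supply fell into those that were higher than in Ki67-negative nests and those with values nearer to them. Rrm1, the large subunit of ribonucleotide reductase, was at 48.9, 79.9, 98.8, 111 and 73.7 CPM after vismodegib, 74.5, 56.7, 43.6, 43.9 and 30.5 CPM in Ki67-negative nests, and 58.2, 50, 79.6, 124 and 76.3 CPM in Ki67-positive nests. The groups overlapped, and the call over Ki67-negative nests (0.73, SE 0.27, adjusted p = 0.0471) was made in 12 of the 25 settings. Tyms, which makes thymidylate, was at 38.7, 54.1, 58.2, 41.0 and 41.3 CPM after vismodegib, 41.0, 24.4, 23, 30.5 and 21.8 CPM in Ki67-negative nests, and 38.7, 28.0, 42.5, 50.2 and 48.9 CPM in Ki67-positive nests. Only Ki67-negative library 1 reached the vismodegib range (0.73, SE 0.20, adjusted p = 0.0115). Dut, which removes dUTP, was at 15.4, 15.7, 28.8, 19.7 and 14.1 CPM after vismodegib, 22.4, 20.3, 8.68, 11.8 and 11.7 CPM in Ki67-negative nests, and 37.3, 19.3, 37.9, 25.8 and 37.6 CPM in Ki67-positive nests. The groups overlapped through Ki67-positive library 2 and vismodegib library 3, and Dut missed the threshold over Ki67-positive nests (−0.75, SE 0.28, adjusted p = 0.0577), as did the thymidine kinase gene Tk1 (−0.64, SE 0.23, adjusted p = 0.0512) and Rrm2, the small reductase subunit (−0.65, SE 0.32, adjusted p = 0.14).

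The ratio of Rrm2 to Rrm1 was taken on counts with 0.5 added. It was not scaled by length, so it compares between libraries but does not give the proportion of the subunits. This count ratio was 0.335, 0.288, 0.360, 0.161 and 0.187 after vismodegib, 0.261, 0.383, 0.201, 0.465 and 0.511 in Ki67-negative nests, and 0.449, 0.319, 0.402, 0.397 and 0.579 in Ki67-positive nests. The difference on the log2 scale was −0.73 for vismodegib minus Ki67-positive nests (exact permutation test, two-sided, p = 0.0238, adjusted p = 0.143 over 6 ratio comparisons), so it did not pass. The 5 other comparisons, which include the ratio of Ccne2 to Ccne1, had adjusted permutation p-values from 0.238 to 0.349. All 5 nucleotide enzymes had an unadjusted p under 0.05 for Ki67-negative over Ki67-positive nests, with log2 fold changes from −1.07 (Dut) to −0.57 (Tyms), and none passed adjustment (smallest adjusted p = 0.277).

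Of the S-phase regulators, Uhrf1, which brings DNA methyltransferase to newly copied DNA, fell after vismodegib relative to Ki67-positive nests. It was at 12.6, 19.1, 22.9, 7.05 and 17.9 CPM after vismodegib, 26.3, 22.5, 13.9, 15.4 and 16.5 CPM in Ki67-negative nests, and 25.6, 20.4, 29.1, 36.0 and 30.5 CPM in Ki67-positive nests. Vismodegib library 3 alone passed the lowest Ki67-positive value (−0.83, SE 0.27, adjusted p = 0.0321). Processed pseudogenes share 15.4% of Uhrf1's 50-base words, so its level is uncertain. The call was lost without vismodegib library 1 (−0.75) or 4 (−0.64), or Ki67-positive library 3 (−0.82), 4 (−0.73) or 5 (−0.80). E2f1, an activating E2F factor, and the cyclin E genes Ccne1 and Ccne2, whose products drive entry into S phase, were not called in any comparison. Their log2 fold changes were −0.31, −0.32 and −0.03 over Ki67-positive nests and 0.78, −0.24 and 0.46 over Ki67-negative nests, and Ccne2 missed the threshold in the second (SE 0.18, adjusted p = 0.0601). Ints8 on the opposite strand overlaps 17.4% of Ccne2's exon bases, so the level of Ccne2 is uncertain.

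Libraries of a group differed among themselves in many of these genes. The counts below were not made over all genes, so they are not set against a background. Vismodegib library 3 had the highest value of all 15 libraries for 13 of the 49 genes, Ki67-positive library 4 for 10, and vismodegib library 4 and Ki67-positive library 5 for 7 each. Ki67-negative library 5 had the lowest value for 19 and Ki67-negative library 3 for 9. Library 5 is the one that lay apart on the second principal component of the tested genes, and it was the highest of its group for 8 of the 49. Within groups, vismodegib libraries 1 and 5 were the lowest of the vismodegib libraries for 21 and 17 genes, and Ki67-positive library 2 was the lowest of its group for 29.

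**Figure D5:**
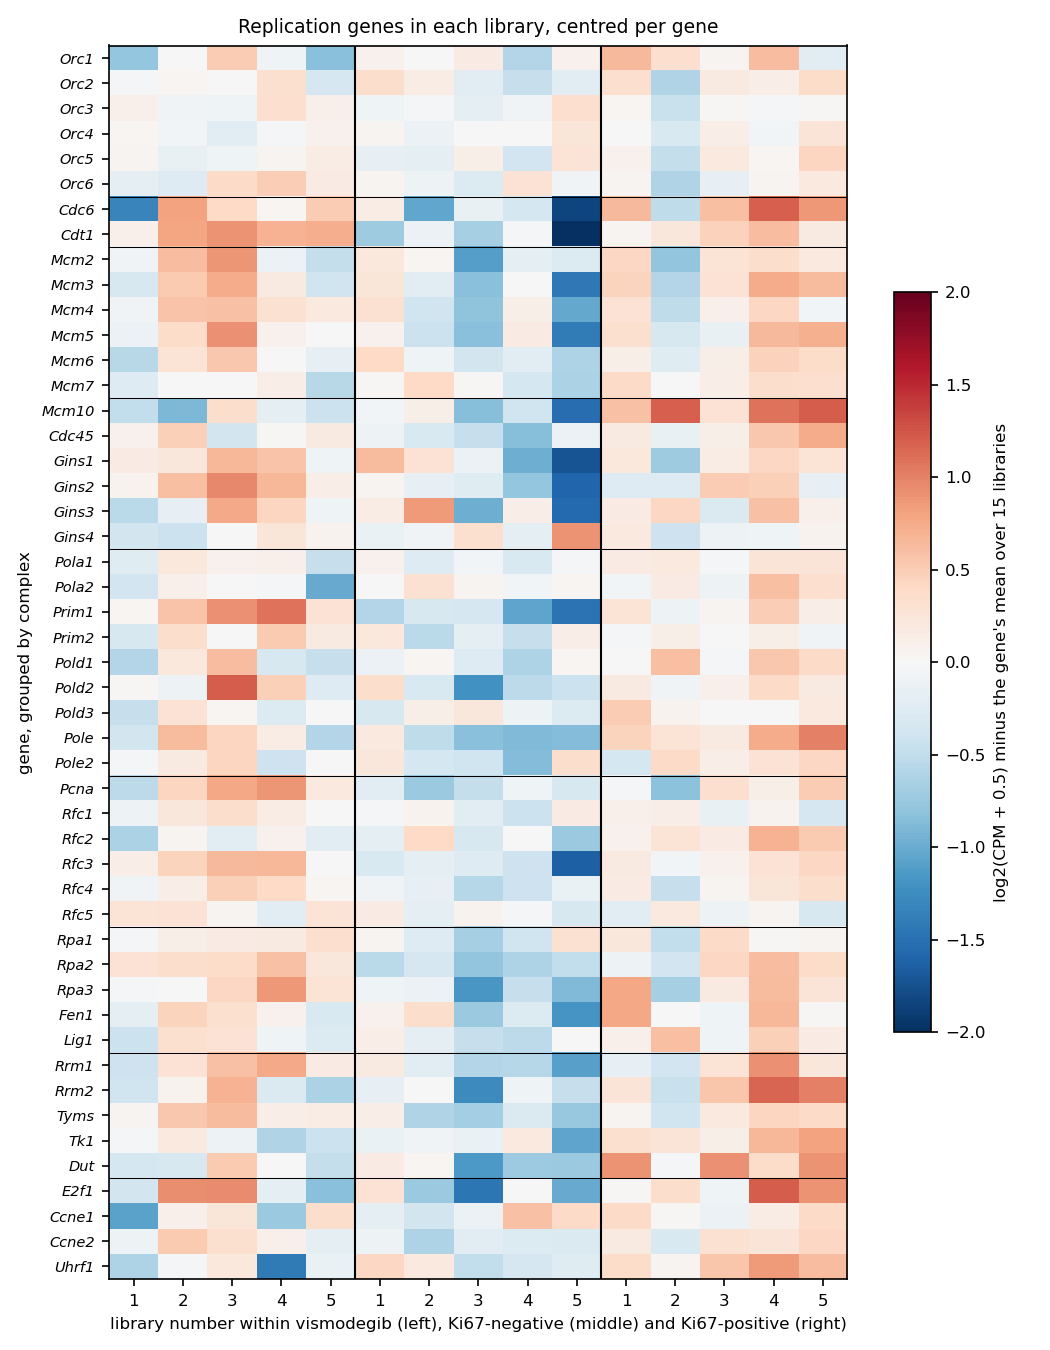
Log2(CPM + 0.5) of each replication gene (rows, grouped by complex) in each library (columns), minus the gene's mean over 15 libraries; colours end at 2 in either direction, red is above and blue below the mean. Ki67-negative library 5 is the lowest of all libraries for 19 genes and vismodegib library 3 the highest for 13, while the 6 origin recognition rows at the top are pale.

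Genes that act around these proteins were read from 6 lists beside the same backgrounds. Of all genes, edgeR called 26.0% for vismodegib over Ki67-positive nests, 31.9% over Ki67-negative nests and 0.174% between the untreated groups. In both comparisons with vismodegib, every list had a share called below that of all genes. At an unadjusted p under 0.05, 18.4% of all genes were higher over Ki67-positive nests. Between the untreated groups, 3.31% were lower in Ki67-negative nests at that threshold. Of 33 origin firing and fork factors, vismodegib nests had 0 higher and 2 lower than Ki67-positive nests. These were Mtbp (−1.07, SE 0.28, adjusted p = 0.00848) and Ticrr (−0.75, SE 0.20, adjusted p = 0.0109), whose human proteins form a complex that fires origins. Over Ki67-negative nests 3 were higher, among them the fork protection genes Tipin (0.86) and Clspn (0.95), and Mtbp was lower (−1.13, SE 0.28, adjusted p = 0.00537). Ticrr was the only one called between the untreated groups (−1.26 for Ki67-negative over Ki67-positive nests, SE 0.21, adjusted p = 0.0239), and 12 of the 33 were lower there at an unadjusted p under 0.05.

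Of 22 further genes of deoxynucleotide supply, vismodegib nests had 3 higher and 2 lower in each comparison. Cad, which starts pyrimidine synthesis, was at −1.45 over Ki67-positive nests (SE 0.23, adjusted p = 0.000135) and −1.29 over Ki67-negative nests (SE 0.23, adjusted p = 0.000332). Ctps, which makes CTP, was at −0.84 and −0.95, the purine synthesis gene Paics at 0.75 and 0.82, and the nucleoside diphosphate kinase gene Nme2 at 0.96 and 1.20, each called in both. Samhd1, which degrades deoxynucleotides, was higher than in Ki67-positive nests (0.61) and the kinase gene Cmpk1 than in Ki67-negative nests (0.73), and between the untreated groups edgeR called 0 of the 22, with 2 lower at an unadjusted p under 0.05.

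Of 20 E2F and pocket protein genes, 2 were higher than in Ki67-positive nests (Rbl2 at 0.57 and E2f2 at 0.77) and 3 lower (Cdk2 at −0.81, E2f3 at −0.43 and the repressor gene E2f7 at −1.23). Over Ki67-negative nests 4 were higher (Ccna2 at 1.02, E2f2 at 1.02, Rbl1 at 0.98 and Rbl2 at 0.36) and Cdk2 was lower (−0.73). The S-phase cyclin gene Ccna2 was the one called between the untreated groups (−1.12 for Ki67-negative over Ki67-positive nests, SE 0.22, adjusted p = 0.0434). Of 17 genes of replication-coupled chromatin, 0 were called over Ki67-positive nests by edgeR (1 higher at an unadjusted p under 0.05), and the histone chaperone genes Asf1b (1.72, SE 0.39, adjusted p = 0.0029) and Nasp (0.50) were higher than in Ki67-negative nests. Of 11 tested genes that turn over licensing factors, edgeR called 0 over Ki67-positive nests (2 higher at an unadjusted p under 0.05) and 3 were higher than in Ki67-negative nests (Cdc20 at 0.94, Cul4b at 0.50 and Dtl, a receptor of the ligase that destroys Cdt1, at 1.04). Of 16 replication checkpoint genes, Fancd2 was lower than in Ki67-positive nests (−0.95, SE 0.28, adjusted p = 0.0179), while over Ki67-negative nests Cdc25b (0.96) and Rad9a (0.51) were higher and Atr was lower (−0.40). Between the untreated groups edgeR called 0 genes of the chromatin, turnover and checkpoint lists, and 7, 3 and 4 of them were lower at an unadjusted p under 0.05.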

How the data were processed

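Counts of reads per gene and size-factor-adjusted RPKM were taken as deposited for 15 libraries. Per the file headers, the authors' counts are uniquely aligned reads per gene model, and the RPKM values were divided by a size factor per library. Reads were aligned with GSNAP to GRCm38, per the submitters' processing notes; aligner version, annotation and strand were not given in the sources used here. Of 36528 NCBI gene identifiers, 31049 (85.0%) matched a symbol. No libraries of a group were duplicates (chi-square per degree of freedom of at least 14.33).

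Genes were kept by filterByExpr (minimum count 10, minimum total 15), scaled by TMM and tested with edgeR 4.0.16 (R 4.3.3) by its two-sided quasi-likelihood test in 1 fit of all 15 libraries with 12 residual degrees of freedom, with Benjamini-Hochberg adjustment over 17282 genes and a threshold of 0.05. The fit was tested on simulated data. CPM values use TMM-scaled library sizes, and intervals are 95%. Depth was 4887381 to 10328822 counts per library, and the common biological coefficient of variation was 0.348, so the median half-width of a gene's interval was 0.51 or 0.52 on the log2 scale for these genes. DESeq2 1.42.0, other scalings, filters, fits and left-out libraries were alternatives. Nothing ties the libraries to separate animals. The p-values rest on the spread between these samples, part of which may be technical, and are too small if nests of a group share an animal. Between the untreated groups they can be too large if these groups share animals. Shared 50-base words and exon overlaps come from the GENCODE M21 annotation of GRCm38. Values in every library are given for genes called in a comparison and for the gene of each complex with the largest change against Ki67-positive nests; from the other lists, up to 4 genes per comparison with the smallest adjusted p were named. The members and lists were chosen with earlier results of these data known. The values of 1 gene of the origin firing and fork factor list are not reported here.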

Additional observations from a re-analysis of the deposited data

Results flagged for a closer look

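Of 147 sets of 5 libraries (49 genes in 3 groups), 7 had a library whose gap to the nearest of the others was over 0.71 of the range of the set (Dixon's test at 95%). Chance flags about 1 set in 20, so 7 is not more than that rate gives. Orc1 was at 6.79 CPM in Ki67-negative library 4, against 10.3 to 11.7 CPM in the other Ki67-negative libraries. Orc3 was at 360 CPM in Ki67-negative library 5, against 253 to 281 CPM in the others of its group. Orc3 was at 210 CPM in Ki67-positive library 2, against 278 to 293 CPM in the other Ki67-positive libraries, and Mcm2 was at 16.4 CPM in that library, against 33.0 to 38.4 CPM in the others. Pola2 was at 22.2 CPM in Ki67-negative library 2, against 17.2 to 18.6 CPM. Pole was at 46.3 CPM in Ki67-negative library 1, against 21.7 to 28.3 CPM in the rest of its group. Rfc3 was at 4.19 CPM in Ki67-negative library 5, against 10.4 to 12.2 CPM in the rest of its group. Ki67-negative library 5 and Ki67-positive library 2 hold 2 flags each.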

How the results depend on the processing

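No called value changed sign. Values not called did: with 1 library left out, Mcm10 over Ki67-negative nests ran from −0.05 to 0.38, and over Ki67-positive nests Rpa3 ran from −0.14 to 0.18, Rrm1 from −0.04 to 0.32 and the median of the 49 from −0.13 to 0.01. In vismodegib against Ki67-positive nests, 2 genes were lower, but 4 with upper quartile scaling and with DESeq2 and 5 with only these groups in the fit; the cause was not tested. Leaving out 1 library gave 1 to 4. With the 10 libraries in which Ddx3y exceeded Xist, chosen after seeing the data, it was 1, and 1380 genes of all were higher and 1435 lower. With those libraries, against Ki67-negative nests, 3 of the 9 genes were called, and 1531 of all genes were higher and 1493 lower; fewer samples enter, and of the 6 not called, Pcna, Rpa3 and Rrm1 had log2 fold changes of 0.99, 1.06 and 0.76, no smaller than with all libraries. Leaving out 1 library gave 6 to 12 genes higher, and DESeq2 gave 13. Cdt1, Prim1 and Rpa2 were called in all 25 settings, Gins2, Rfc3, Tyms and Mcm10 in 24. Between the untreated groups, edgeR called 0 of the group and DESeq2 4; leaving out 1 library gave 0 to 1. The 30 genes of all that were lower became 0 with only these groups or the Ddx3y libraries and 83 with DESeq2, which called 5 higher; leaving out 1 library gave 0 to 43 lower and 0 to 1 higher, with 12 without Ki67-negative library 2, 2 without Ki67-positive library 5, and 0 without Ki67-negative library 3, 4 or 5 or Ki67-positive library 4. The difference of the mean log2 level of the 49 genes was −0.12, 0.38 and −0.50 in the 3 comparisons, and −0.20 to −0.04, 0.30 to 0.45 and −0.58 to −0.43 with 1 library left out. Shorter motifs moved the promoter share to 61.0% of the group and 10.9% of all genes. No paired analysis was possible because the labels carry no replicate numbers. Cdc6 had 4 to 74 counts per library, and its interval against Ki67-positive nests reaches beyond 2-fold; the part of depth in that was not tested.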
